A study of Drosophila melanogaster with 185 samples.

Results

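The genes described here are the nuclear genes for the proteins of the mitochondrial ribosome in Drosophila melanogaster. They were taken as every gene whose symbol in the deposited counts begins with mRpL, for the large subunit, or mRpS, for the small subunit. This gave 72 of 15682 genes, 46 of them mRpL and 26 mRpS. The mitochondrial ribosome translates the few proteins encoded by mitochondrial DNA, which are core subunits of the oxidative phosphorylation complexes. Its ribosomal RNAs come from mitochondrial DNA, whereas all of its proteins are encoded in the nucleus, made by cytosolic ribosomes and imported. Many of the proteins keep a bacterial counterpart and carry its number, and others were added to the particle in eukaryotes.

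The libraries come from mushroom body neurons. The mushroom body is the centre for olfactory memory in the fly brain. The neurons were found by their position and by eGFP, which a UAS-eGFP reporter expressed under a GAL4 driver, and were drawn from living flies into a patch pipette. All flies shared the w1118 background. In training, repeated blocks with pauses between them joined an odour to electric shocks. Control flies had the same shocks first and the odour later. Each of 7 classes was sampled in trained and in control flies: DAL (driver G0431), V2 (R71D08), V3 (CG0239), 3-86 and R27G01, which the study counts as mushroom body output neurons, and gamma (NP1131) and alpha/beta (c739) Kenyon cells, the intrinsic neurons. Each V2 library was made from 12 cells and each library of the other output neurons from 4, while a Kenyon cell library pooled many more cells. Trained and control groups held 5 libraries each in DAL, V2 and V3, 4 and 6 in 3-86, 4 each in R27G01, and 6 each in gamma and alpha/beta. The other libraries were 24 of whole flies that carried reporter and driver (3 or 4 per driver), 3 of whole flies with the reporter alone, and 2 of brains with the reporter alone. All of the fly and brain libraries are labelled as control. The age and sex of the flies are not given in the labels, which state only that ages were matched.

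Depth is given in units of 1000000 counts. Neuron libraries had a median depth of 7.87 (lowest 1.69, highest 22.9) and fly libraries one of 5.49 (lowest 0.932, highest 16.2). The brains had 1.33 and 2.27. Sequencing runs were summed by library. Of 84 libraries with 2 runs, 81 had runs that agreed within sampling noise. In 3-86 trained library 2 and 3-86 control library 3 they did not. The second run deposited for the trained one matched the first run deposited for the control one, with a chi-square ratio to its degrees of freedom of 1.065. Each of these sums therefore mixes RNA of different origin under 1 label. The sample sheet of the series codes 3-86 trained library 4 as control, against its other labels, which were followed here. The sheet also gives DAL control library 2 another treatment code, and its control label was kept. The pair of samples summed as alpha/beta control library 6 had a ratio of 35.3 and may be 2 libraries. The descriptions of the gamma and 3-86 flies and of the brains name them as A and B of a number, so libraries of these groups may share animals, and for no group do the labels state which animal a library came from. The p-values therefore measure the spread between libraries. In a bulk library, fewer cells of a type and less RNA per cell cannot be told apart.

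The labels were checked against marker genes. All 7 pan-neuronal markers found in the files were higher in control neurons than in whole flies, and all 10 muscle and all 6 female germline markers were lower. All 7 Kenyon cell markers were higher in Kenyon cells than in output neurons, with summed levels of 14080 to 25280 CPM (counts per 1000000 counts of the library) against 728 to 3720 CPM. Fat body markers, among them the yolk proteins, summed to 78.2 to 1560 CPM in control Kenyon cells (median 527.9) and to 2708 to 78730 CPM in control output neurons (median 21130). None of the 6 fat body markers was at 0 throughout the control output neurons. Their sums there overlapped those of driver flies, which are given under the other observations at the end.

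All 72 symbols were found in the BDGP6 annotation, which is newer than the BDGP5 build of the counts. The genes lie on chromosome arms 2L (12 genes), 2R (12), 3L (17) and 3R (20) and on chromosome X (11), and their coding lengths run from 192 bases in mRpL33 to 1671 bases in mRpS30. Exons of 42 of the 72 share bases with another gene, of 41 with a gene on the opposite strand. Whether reads were counted by strand is not given in the sources used here, so the levels of these 42 genes may include reads of their neighbours. mRpL53 had 0 counts in every library. All libraries together hold 776670214 counts, and a count of 0 allows at most 0.00386 CPM over them. Its exons share bases with CG33155 on the same strand and AGO1 on the opposite strand. Whether the counting dropped reads shared by overlapping genes is not given in the sources used here, so this limit holds for counted reads and not for expression. The other 71 genes were all detected in every control library of both Kenyon cell classes.

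mRpS5, a small-subunit protein named for a bacterial family at the entry site of the mRNA, was the most abundant of the 72 in 96 libraries, all but 5. It averaged 349 ± 189 CPM in control neurons and 167 ± 38.9 CPM in driver flies (SD, n = 37 and 24). After it by CPM came mRpS18A with 95.1 ± 49.5, mRpL55 with 76.5 ± 34.4, mRpL50 with 70.0 ± 42.4 and mRpS25 with 70.0 ± 51.9 CPM in control neurons. Below mRpS5, the neighbours in this order differed by less than their SD. Apart from mRpL53, the lowest means were 13.6 CPM for mRpS29, 13.9 for mRpS18B, 15.0 for mRpS24 and 15.2 for mRpL11. mRpS5 was not the top gene in DAL trained library 4, where mRpL33 was, in 3-86 control library 5 and alpha/beta control library 3, where mRpL55 was, and in the brains.

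Levels of different genes can be set side by side only per length. Per kilobase of coding sequence, mRpS5 stood at 286 ± 154 CPM in control neurons, mRpL33 at 266 ± 139, mRpS21 at 242 ± 149, mRpL55 at 238 ± 107 and mRpS18A at 205 ± 107 (SD, n = 37). These 5 differed by less than their SD between libraries. mRpS5 was still first on this scale, but with a smaller lead than by CPM. Per kilobase of exonic sequence the means were 207 for mRpS5, 168 for mRpL55, 164 for mRpS18A, 146.5 for mRpL33 and 133 for mRpS21. The order below mRpS5 and the size of its lead thus depended on the length used. The values below are per kilobase of coding sequence. The lowest of the 71 detected genes were mRpS30 with 10.1, mRpS29 with 11.5 and mRpL38 with 13.6 CPM per kilobase. The paralogues of the S18 family, whose mammalian counterparts occupy different places in the ribosome, were unequal, with 205 CPM per kilobase for mRpS18A, 78.0 for mRpS18C and 22.8 for mRpS18B. The stalk proteins, which face the elongation factors, were at 71.1 for mRpL12, 55.7 for mRpL10 and 25.8 for mRpL11, the base of the stalk. mRpL44, with a ribonuclease III fold, and mRpL45, which in mammals lies near the exit of the nascent chain, were at 23.6 and 25.6 CPM per kilobase.

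The summed level of the 72 genes was 2898 ± 1060 CPM in control neurons (n = 37) and 1962 ± 472 CPM in driver flies (n = 24). Scaled by TMM factors from all libraries together, the sums were 2792 ± 1026 and 2386 ± 217 CPM, so the gap was smaller. The tests below scaled only the libraries they compared, so these sums are not on the scale of the tests. In these scaled sums control Kenyon cells averaged 1806 CPM, below driver flies, and control output neurons 3265 CPM, above them. The test of Kenyon cells alone against flies nevertheless had a positive median log2 fold change, 0.38, with 27 genes higher and 11 lower. The sums by class below are unscaled. By class, trained and control neurons averaged 2360 ± 448 and 2800 ± 855 CPM in DAL, 3617 ± 584 and 3276 ± 917 in V2, 3776 ± 855 and 3512 ± 616 in V3, and 3759 ± 647 and 3889 ± 1242 in 3-86. They averaged 3365 ± 461 and 3335 ± 449 in R27G01, 2523 ± 532 and 1988 ± 548 in gamma, and 1989 ± 935 and 1783 ± 474 in alpha/beta Kenyon cells. In each of the 7 classes the trained and control ranges overlapped. Flies of the same drivers averaged 1492 ± 209 to 2668 ± 294 CPM. The large-subunit genes made up 57.3 ± 3.7% of the sum in control neurons and 58.5 ± 1.5% in driver flies. The lowest library was alpha/beta trained library 1, with 667 CPM, 1689680 counts in total and 22 genes at 0.

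**Figure D1:**
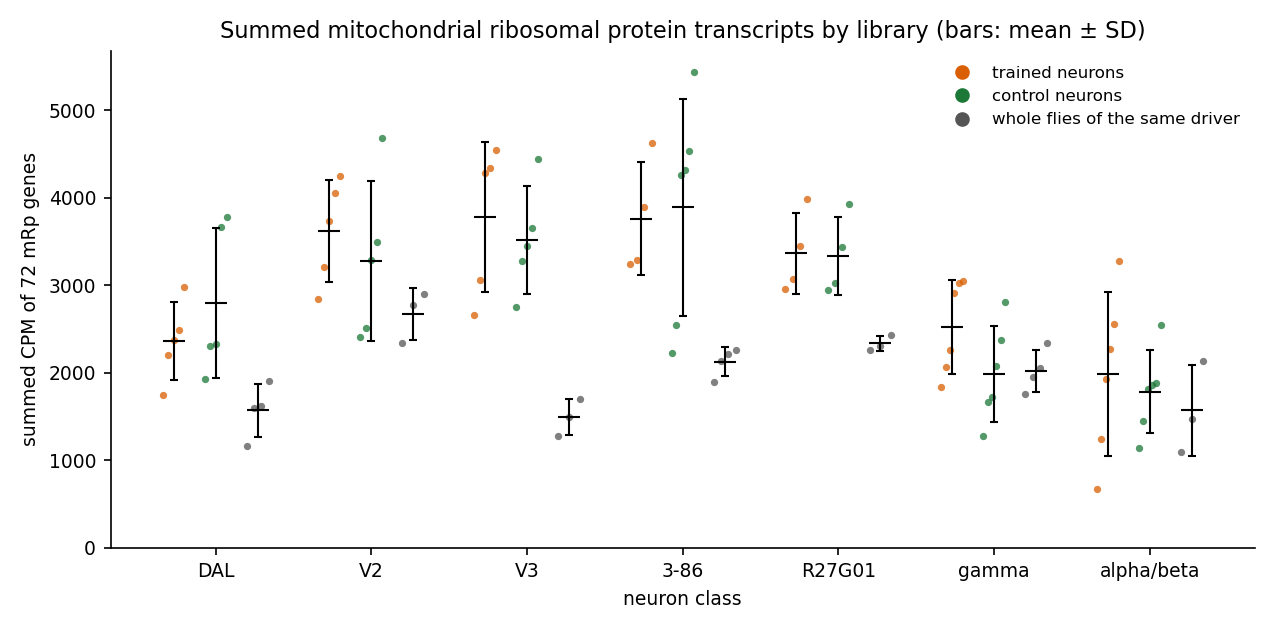
Summed CPM of the 72 genes in each library (vertical axis, linear from 0) by neuron class (horizontal axis), for trained neurons, control neurons and whole flies of the same driver. Points are libraries and bars are means ± SD. Control Kenyon cells averaged 1886 CPM and control output neurons 3384 CPM, while trained and control libraries of every class overlapped.

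Cytosolic ribosomal protein genes behaved differently from the mitochondrial ones. They summed to 22.6 ± 17.6 times the mitochondrial sum in control neurons (7.22 to 93.8) and to 71.5 ± 16.3 times in driver flies (42.2 to 106). The ratio was 14.3 ± 5.3 in control Kenyon cells and 26.5 ± 20.1 in control output neurons, whose libraries covered the Kenyon cell range.

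Among control libraries, values of 0 were more common in those made from 4 cells. They made up 1.39% of all gene by library values in control Kenyon cells, which is mRpL53 alone, and 7.08% in the control libraries of 4 cells. They reached 17.7% in trained and 9.95% in control 3-86 neurons, and 20.1% in trained and 10.1% in control R27G01 neurons. In DAL they made up 5.56% in trained and 3.61% in control neurons, and in V3 6.11% and 4.72%. Trained alpha/beta cells, pooled from many cells, had 6.48%, with 22 of their 28 values of 0 in library 1. A total of 71 genes were found in every control Kenyon cell library, 30 in every control output neuron library and 66 in every driver fly library. When every library was thinned to 931967 counts, the mean number detected was 70.8 in control Kenyon cells, 64.5 in control output neurons and 70.7 in driver flies. The median coefficient of variation of a gene across libraries was 28.2% in trained and 39.8% in control gamma cells, but 110% in trained and 98.2% in control 3-86 neurons, and 75.2% in control R27G01 neurons.

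Control neurons of the 7 classes were compared with whole flies of the same drivers to ask which of the genes are enriched in these neurons relative to the whole animal. Of 71 genes tested, 31 were higher in neurons and 6 lower at a Benjamini-Hochberg adjusted p of 0.05 over all 10549 genes tested in edgeR's quasi-likelihood test. Among all genes, 30.2% were higher and 34.3% lower. The median log2 fold change (neurons over flies) was 0.54 over the 71 genes and 0.01 over all genes, and 73.2% of the 71 had a positive fold change against 50.1% of all genes. Both subunits took part, with 20 of 45 mRpL genes higher and 4 lower, and 11 of 26 mRpS genes higher and 2 lower. Fat body marker sums of control output neurons overlapped those of driver flies. The part of such RNA in these fold changes was not tested.

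The rise with the smallest p was that of mRpL55, a large-subunit protein with no bacterial counterpart. Control neurons had 35.0 to 163 CPM (median 67.0), against 8.22 to 26.8 CPM in driver flies (median 14.2). The 37 neuron libraries all lay above the 24 fly libraries. This held for no other of the 72 genes and for 3.41% of all genes tested. The log2 fold change was 2.38 ± 0.19 (SE; adjusted p = 1.32e-16).

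mRpL33, a small protein of the bacterial L33 family, had 17.4 to 130.5 CPM in control neurons (median 42.2), against 4.54 to 36.5 CPM in driver flies (median 8.70), and a log2 fold change of 2.12 ± 0.20. mRpS33, a small-subunit protein without a bacterial counterpart, had 19.96 to 112 CPM in control neurons (median 41.7), against 3.39 to 32.1 CPM in driver flies (median 11.02), and a log2 fold change of 2.08 ± 0.22. In both cases the ranges overlapped but the neuron median exceeded the highest fly library. mRpL50 averaged 70.0 ± 42.4 CPM in control neurons and 21.8 ± 8.5 CPM in driver flies, with a log2 fold change of 1.61 ± 0.21. mRpL23, which in bacteria lies at the exit of the nascent chain, averaged 60.4 ± 37.7 CPM in control neurons and 16.9 ± 5.4 CPM in driver flies, with a log2 fold change of 1.82 ± 0.25. The adjusted p of these 4 was at most 5.80e-09. mRpL48, named here after its values were seen, had an equal fold change to that of mRpL55 with more scatter, at 27.7 ± 24.9 CPM in control neurons and 5.16 ± 2.55 CPM in driver flies (log2 fold change 2.38 ± 0.49).

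The 6 genes that fell in neurons came from both subunits. mRpL1, a protein of the mobile stalk at the exit site for transfer RNA, had 0 to 99.8 CPM in control neurons (median 20.7), against 19.8 to 90.7 CPM in driver flies (median 65.7), and a log2 fold change of -1.07 ± 0.34. mRpS30, whose mammalian counterpart sits in the large subunit despite its name, had 0 to 132.5 CPM in control neurons (median 11.6), against 20.4 to 57.8 CPM in driver flies (median 39.4), and a log2 fold change of -1.41 ± 0.46. In both cases the neuron libraries covered the whole fly range, and single neuron libraries were the highest of all. mRpL38 had a median of 10.6 CPM in control neurons and 25.2 CPM in driver flies, with a log2 fold change of -1.53 ± 0.44.

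mRpL45 had a median of 17.1 CPM in control neurons and 49.9 CPM in driver flies, with a log2 fold change of -1.13 ± 0.39. mRpS7, from the head of the small subunit, averaged 58.1 ± 40.9 CPM in control neurons and 106 ± 37.1 CPM in driver flies, with a log2 fold change of -0.82 ± 0.26. mRpL28 averaged 46.1 ± 30.3 CPM in control neurons and 75.2 ± 13.3 CPM in driver flies, with a log2 fold change of -0.80 ± 0.22. All 6 also fell when trained libraries took the place of control ones, an alternative added after the data were seen, and 20 of the 31 higher genes were higher there too. In the trained libraries 22.7% of all genes were higher and 42.4% lower. Kenyon cells alone gave 27 higher and 11 lower genes, where 40.3% of all genes were higher and 36.4% lower. Output neurons alone gave 21 higher and 6 lower, where 25.3% of all genes were higher and 33.5% lower. Of these genes, 18 were higher and 5 lower in both.

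**Figure D2:**
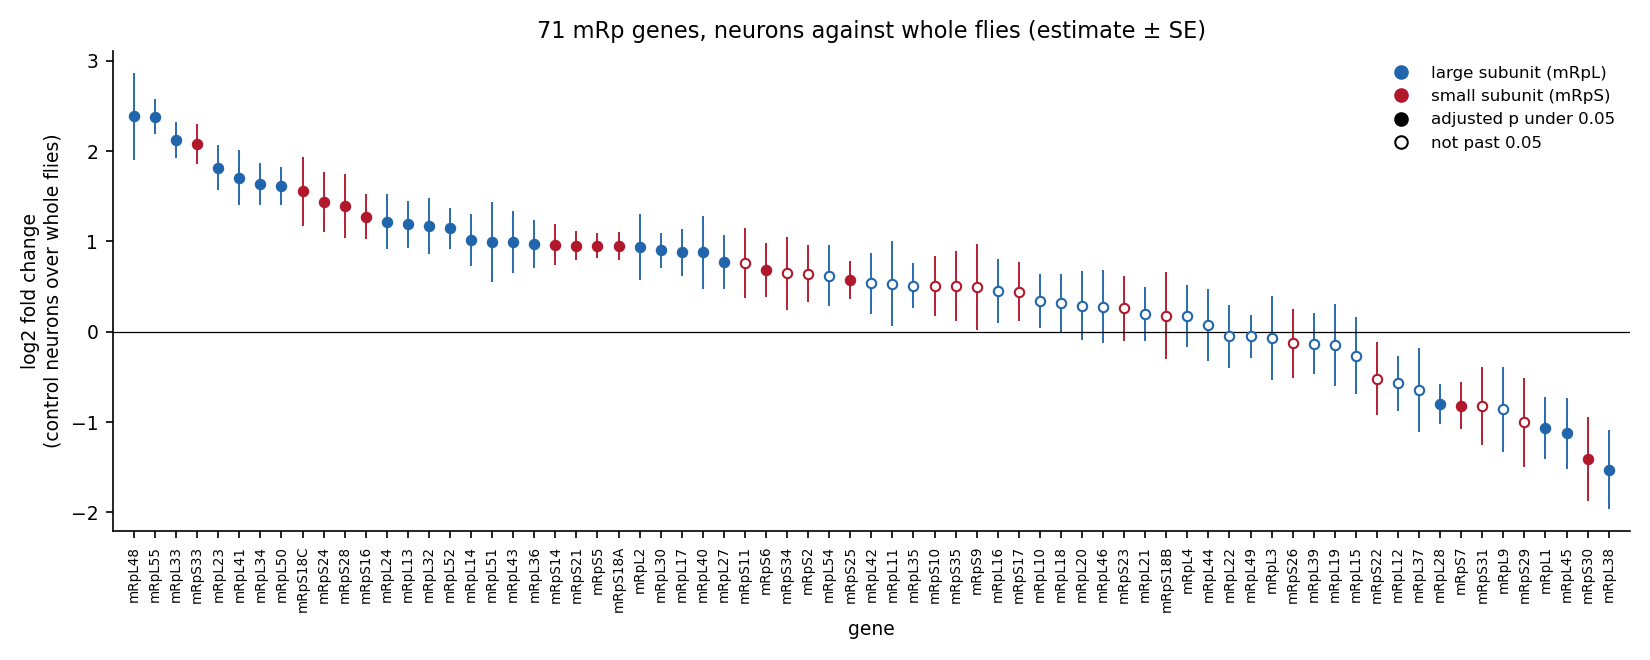
Log2 fold change of 71 genes, control neurons over whole flies (vertical axis), ordered by fold change, with bars of ± SE. Colours separate large-subunit from small-subunit genes and filled points passed the adjusted p of 0.05. mRpL55 stands at 2.38 and mRpL38 at -1.53.

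The split into higher and lower depended on the scaling of the libraries. With DESeq2's size factors in place of TMM factors, the median of all genes moved to -0.90 and 8 of the 71 genes were higher and 20 lower, against 20.5% higher and 48.5% lower among all genes. Relative to that shift the genes kept their place, with a median 0.53 above that of all genes under either scaling. Under all 3 scalings tried (TMM, DESeq2 size factors and library totals) the higher genes were mRpL23, mRpL33, mRpL34, mRpL41, mRpL48, mRpL50, mRpL55 and mRpS33, and the lower genes were the 6 above. None passed in opposite directions under different scalings.

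Other groups of mitochondrial and ribosomal genes moved otherwise in the same comparison. Of 84 cytosolic ribosomal protein genes tested, 1 was higher and 75 were lower in neurons, with a median log2 fold change of -1.08. Of 28 nuclear genes for oxidative phosphorylation subunits, 9 were higher and 10 lower (median -0.02). Of 15 tested genes for mitochondrial translation and transcription factors, 0 were higher and 5 lower (median -0.40). Of 12 for mitochondrial import and carriers, 3 were higher and 4 lower (median -0.10). Neither of 2 mitochondrial ribosomal protein genes whose symbols lack the mRp prefix passed (median -0.18).

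Across the 71 genes the fold change between neurons and flies went with coding length. The Spearman correlation of log2 fold change with coding length was -0.70 over the 71 genes, whose values come from the same libraries, and it is given as a description. The 35 genes with a coding sequence below the median of 576 bases held 24 of the 31 higher genes and 0 lower ones, with a median log2 fold change of 0.95. The 36 genes at or above it held 7 higher genes and all 6 lower ones, with a median of 0.13. Fold change was also related to the CPM in flies (Spearman correlation -0.64). The same fly libraries are the denominator of the fold change, so the 2 values are not independent and a negative correlation can arise from that alone. In 83 cytosolic ribosomal protein genes the correlations were -0.49 with coding length and -0.71 with the CPM in flies. Only 75.8% of all genes tested had a coding length, so the same check over all genes is void and its values describe those genes alone. In these 7997 genes the correlation with coding length was 0.08 and that with the CPM in flies was -0.28. Among them, 403 were higher and 417 lower of 1248 genes below 576 bases (median 0.33), and 1975 were higher and 2406 lower of 6749 genes at or above it (median -0.11). The part of fragment length, amplification or shared exons in this relation was not tested. The split by shared exons was smaller, with 21 higher and 2 lower of 41 genes that overlap another gene and 10 higher and 4 lower of 30 that do not. Genes named for a bacterial family, with 19 higher and 3 lower of 42, and genes numbered above those families, with 12 higher and 3 lower of 29, had median log2 fold changes of 0.59 and 0.54.

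**Figure D3:**
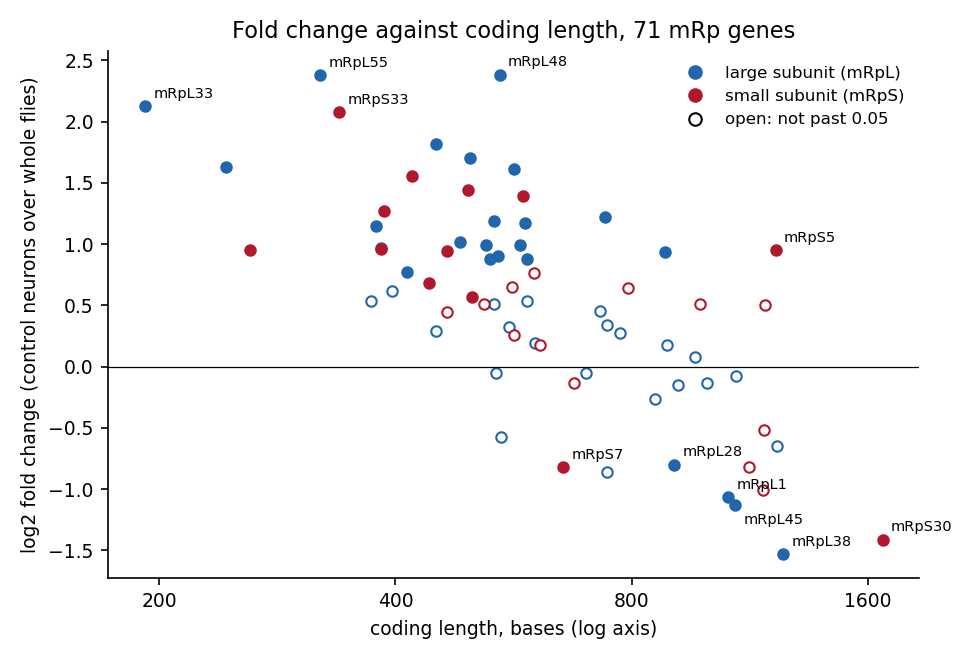
Log2 fold change, control neurons over whole flies (vertical axis), against the coding length of each of 71 genes in bases (horizontal axis, log scale). The short genes mRpL33, mRpL55 and mRpS33 lie above 2 and the long genes mRpS30 and mRpL38 below -1, while mRpS5, with 1221 bases, lies at 0.95.

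Control Kenyon cells were compared with control output neurons to ask whether intrinsic and output neurons differ in these genes. Of 71 genes tested, 0 were higher and 7 lower in Kenyon cells, where 17.5% of all 9168 genes tested were higher and 14.3% lower. The median log2 fold change (Kenyon cells over output neurons) was -0.66 for the 71 genes and 0.11 for all genes, and 67 of the 71 had a negative fold change. The summed level was 1886 ± 500 CPM in Kenyon cells (n = 12) and 3384 ± 902 CPM in output neurons (n = 25). The share of the genes called lower, 7 of 71, was below that of all genes.

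mRpS21, a short protein of the small subunit, had 19.2 to 38.8 CPM in Kenyon cells (median 27.3), against 21.1 to 170.2 CPM in output neurons (median 74.2). The log2 fold change was -1.38 ± 0.29 (SE; edgeR adjusted p = 1.46e-04). The Kenyon cell level was close to that of driver flies, 29.2 ± 9.3 CPM. mRpS5 had 63.1 to 319.6 CPM in Kenyon cells (median 182), against 131 to 824 CPM in output neurons (median 413), and a log2 fold change of -1.02 ± 0.22 (adjusted p = 3.18e-04). Its Kenyon cell mean of 188 ± 75 CPM stood beside 167 ± 39 CPM in driver flies. The ranges of Kenyon cells and output neurons overlapped for both genes.

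mRpS25, a small-subunit protein, averaged 30.6 ± 11.6 CPM in Kenyon cells and 88.9 ± 53.2 CPM in output neurons, with a log2 fold change of -1.24 ± 0.36 (adjusted p = 0.00567). mRpL35, of the bacterial L35 family, averaged 23.4 ± 10.3 CPM in Kenyon cells and 59.5 ± 33.5 CPM in output neurons, with a log2 fold change of -1.18 ± 0.44 (adjusted p = 0.0336). mRpS18A averaged 62.2 ± 16.03 CPM in Kenyon cells and 111 ± 52.5 CPM in output neurons, with a log2 fold change of -0.68 ± 0.26 (adjusted p = 0.036). The remaining 2 lower genes were mRpL17, from the region of the exit tunnel, at -1.19, and mRpL30 at -0.83.

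When each class was set relative to the flies of its own driver, 3 genes were lower in Kenyon cells, namely mRpS21, mRpS5 and mRpS25, where 10.2% of all genes were lower. Trained libraries in place of control ones also gave 3 lower genes, namely mRpS21, mRpS5 and mRpL33, where 11.3% of all genes were lower. Without R27G01 control library 1 the count of lower genes was 14 (14.6% of all genes), and without R27G01 control library 2 it was 13 (15%). DESeq2 called 18 lower, and 18.6% of all genes.

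Other groups moved with this comparison. In Kenyon cells 23 of 27 oxidative phosphorylation genes were lower and 0 higher, and 81 of 85 cytosolic ribosomal protein genes were lower and 1 higher. All 5 fat body markers tested and all 5 photoreceptor markers were lower in Kenyon cells, with fat body sums as given above and photoreceptor sums of 4.58 to 170 CPM in Kenyon cells and 17.0 to 15480 CPM in output neurons. Pan-neuronal markers summed to 13590 to 31740 CPM in Kenyon cells and to 1933 to 13360 CPM in output neurons. Kenyon cell libraries also held more cells. The part of these marker differences and of cell number in the levels of the mRp genes was not tested.

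Between the 2 Kenyon cell classes none of the 71 genes passed, with 0.0218% of all genes higher and 0% lower in alpha/beta than in gamma cells. None of the 71 had an unadjusted p below 0.05 in edgeR, and DESeq2 called 0. The median log2 fold change was 0.01 (alpha/beta over gamma) against -0.03 over all genes. The genes with the smallest p were mRpL49, at 34.5 CPM in alpha/beta and 19.5 CPM in gamma cells (log2 fold change 0.96 ± 0.67), mRpS16 at 0.69 ± 0.69 and mRpL17 at -0.68 ± 0.70. These estimates were near the size of their standard errors, so differences as large as these or somewhat larger could have been missed here.

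An F test over the 7 control classes in edgeR called 4 genes, mRpS21 (adjusted p = 2.96e-04), mRpS5 (0.00275), mRpS25 (0.00772) and mRpL49 (0.0332), where 34.9% of all genes were called. mRpS21 averaged 133 ± 28.6 CPM in R27G01, 95.1 ± 33.1 in 3-86, 65.1 ± 26.1 in DAL, 60.5 ± 14.6 in V3, 54.5 ± 10.8 in V2, 28.1 ± 6.1 in alpha/beta and 26.4 ± 5.2 in gamma neurons. The neighbours DAL, V3 and V2, and alpha/beta and gamma, differed by less than their SD. mRpS5 averaged 501 ± 126 CPM in V3, 496 ± 261 in 3-86, 457 ± 136 in R27G01, 405 ± 121 in V2, 265 ± 103 in DAL, 218 ± 63 in gamma and 158 ± 79.1 in alpha/beta neurons. DAL was thus the output neuron class nearest to the Kenyon cells for mRpS5, which was not so for mRpS21. mRpS25 was highest in 3-86, at 149 ± 47.2 CPM. It was at 44.9 ± 39.4 in R27G01, between the Kenyon cells and the other output neurons.

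mRpL49, a large-subunit protein without a bacterial counterpart, ran from 12.2 ± 9.1 CPM in V3 to 83.4 ± 81.9 CPM in R27G01. In R27G01 the spread between libraries equalled the mean. Among the 5 output neuron classes alone the F test called mRpS21 (adjusted p = 0.0486) and mRpL49 (0.0495), and the third gene by p, mRpL38, did not pass (0.0888), where 20.9% of all genes were called. Both lie next to the threshold. With library totals or with no filter 0 genes passed, without the unmatched 3-86 libraries 4 passed, and in trained libraries 5 passed, neither of the above among them.

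**Figure D4:**
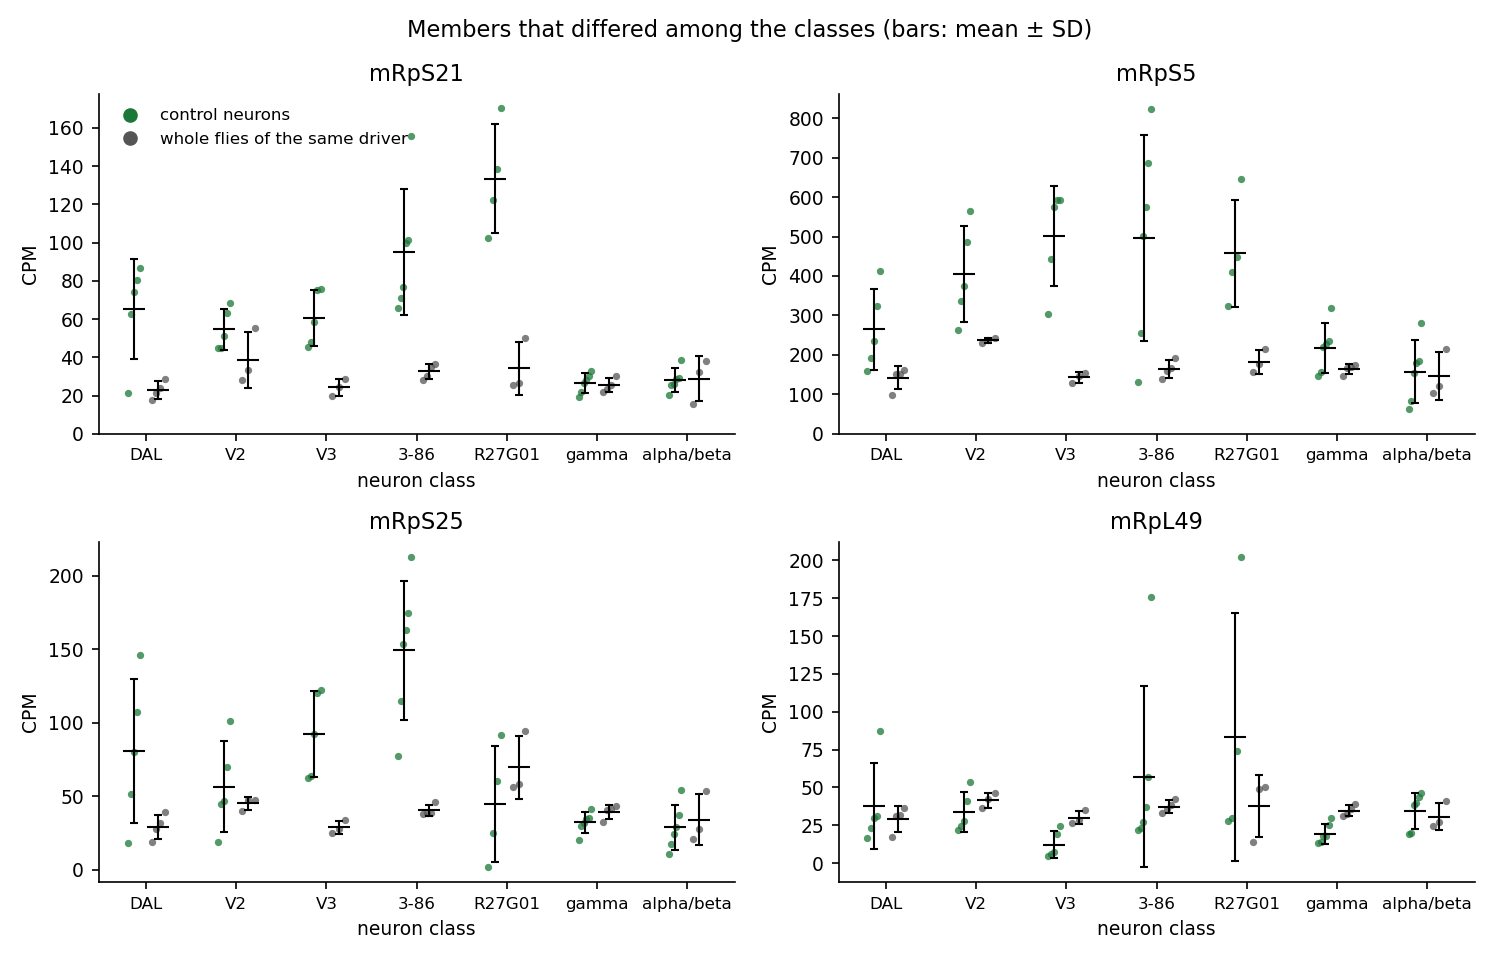
CPM of mRpS21, mRpS5, mRpS25 and mRpL49 (vertical axes, linear from 0) in control neurons of each class and in whole flies of the same driver. Points are libraries and bars are means ± SD. mRpS21 is highest in R27G01 at 133 CPM and lowest in gamma at 26.4 CPM, while whole flies of all drivers average 29.2 CPM.

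Trained neurons were compared with control neurons within each class to ask whether aversive conditioning changes these genes. No gene of the 72 passed in any class, and none of the genes in the whole table did: 0% were higher and 0% lower in DAL (6953 genes tested), V2 (7281), V3 (6858), 3-86 (6692), R27G01 (5548), gamma (7840) and alpha/beta (7228). Of the mRp genes, 71 were tested in each class except 3-86 with 69 and R27G01 with 65. At an unadjusted p below 0.05 in edgeR there were 5 of 71 mRp genes in gamma, 2 of 65 in R27G01, 1 of 71 in alpha/beta and 0 in the other 4 classes. The same held for 5.61% of all genes in gamma, 2.4% in R27G01, 2.74% in alpha/beta and 1.46% to 5.4% in the others. DESeq2 called 0 in each class except R27G01, where it called mRpL39.

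Gamma Kenyon cells had the smallest spread and a shift in 1 direction. Of 71 genes, 66 had a positive log2 fold change (trained over control), which is 93.0% against 48.5% of all genes, with a median of 0.21 against -0.01. All 26 mRpS genes and 40 of 45 mRpL genes were positive. The summed level was 1839 to 3045 CPM in trained gamma cells (median 2581), against 1279 to 2806 CPM in control gamma cells (median 1903), so the libraries overlapped. Leaving out each library in turn gave 62 to 68 positive genes and medians of 0.15 to 0.29. The titles of these libraries end in 4 codes, whose meaning the labels do not state and each of which is found in trained and control libraries. With this code as a term, 64 genes were positive with a median of 0.19, against 49.0% and -0.01 for all genes, and 0 of the 71 passed. Since the genes of a library share its scaling, the number of positive genes is not a number of independent observations.

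The smallest p in gamma cells was that of mRpL50. Trained libraries had 82.8, 60.7, 92.1, 51.2, 49.1 and 78.6 CPM, against 40.3, 69.8, 42.5, 45.8, 40.8 and 34.4 CPM in control libraries. Each trained library exceeded every control library except control library 2. The log2 fold change was 0.48 ± 0.18 and the edgeR adjusted p was 0.796. mRpS25 had 33.9 to 63.1 CPM in trained and 20.1 to 41.4 CPM in control gamma cells, a log2 fold change of 0.44 ± 0.19. mRpL49 had 19.4 to 39.5 CPM in trained and 12.9 to 29.9 CPM in control gamma cells, a log2 fold change of 0.51 ± 0.22. In the same comparison Kenyon cell markers and pan-neuronal markers had negative fold changes in 7 of 7 genes each, with medians of -0.37 and -0.23, and cytosolic ribosomal protein genes in 36 of 83, with a median of 0.01. Their part in the shift was not tested.

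**Figure D5:**
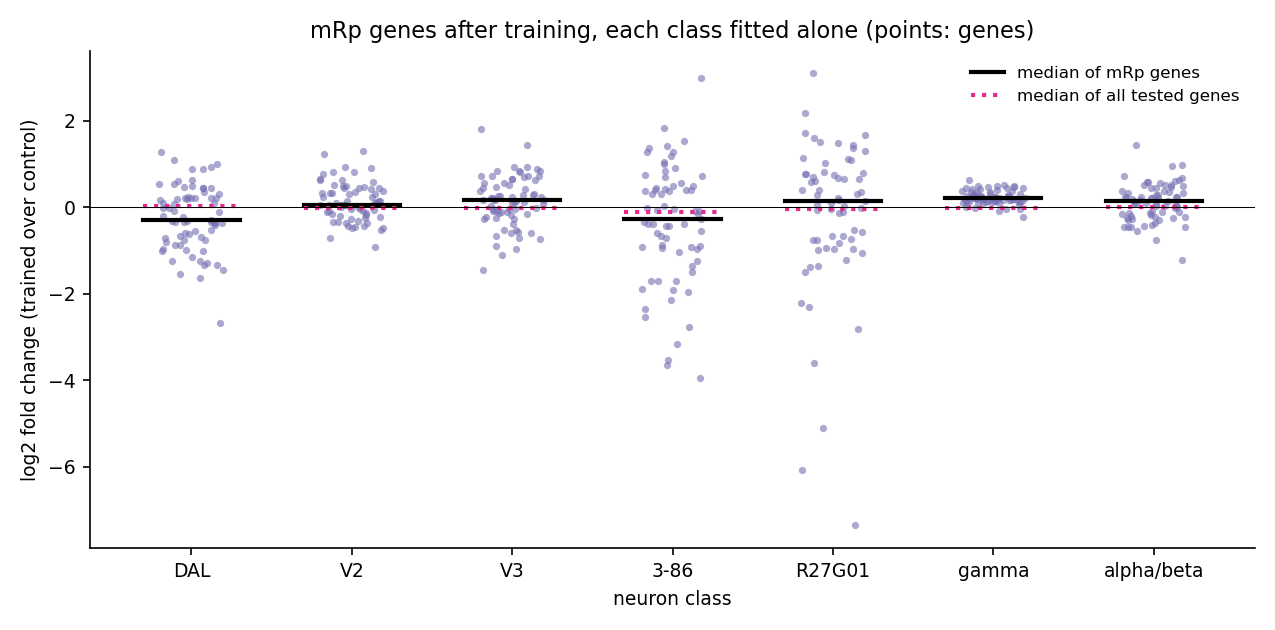
Log2 fold change of each mRp gene, trained over control (vertical axis), by neuron class (horizontal axis). Each point is a gene, black lines are medians of the mRp genes and dotted lines medians of all genes tested. Gamma cells have a median of 0.21 and little scatter, while fold changes in R27G01 reach -7.35 for mRpL39.

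In the other classes the medians (trained over control) were 0.14 in alpha/beta, 0.17 in V3, 0.15 in R27G01, 0.07 in V2, -0.27 in 3-86 and -0.30 in DAL, against 0.02, -0.01, -0.03, -0.01, -0.10 and 0.03 over all genes. Without single libraries the medians crossed 0 in alpha/beta (-0.02 to 0.27), R27G01 (-0.05 to 0.25) and V2 (-0.02 to 0.23). In V3 they stayed positive, at 0.06 to 0.20. With the sample sheet letter as a term the alpha/beta median was -0.12, against -0.08 over all genes. Leaving out each DAL library in turn gave DAL medians of -0.42 to -0.06, with -0.06 without control library 2. This is the library to which the sample sheet gives another treatment code. In alpha/beta cells the smallest p was that of mRpS29, the fly counterpart of a GTP-binding protein linked to cell death in mammals, with 3.13 to 58.1 CPM in trained and 4.53 to 13.2 CPM in control libraries (log2 fold change 1.45 ± 0.57). mRpL42 at 0.56 and mRpL36 at 0.53 followed. In V2 the smallest p values were those of mRpL39 at 1.23, mRpL52 at 0.65 and mRpS30 at 0.82, and in V3 those of mRpS21 at 0.92, mRpL18 at 1.45 and mRpL49 at 1.80.

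mRpS2, a small-subunit protein of a bacterial family, had the smallest p in both DAL and 3-86. In DAL it had 0, 17.2, 11.4, 1.92 and 4.35 CPM in trained neurons, against 56.2, 63.4, 29.4, 23.9 and 35.3 CPM in control neurons. The groups did not overlap, with trained below control, as in 0.288% of all genes tested in DAL, yet the log2 fold change of -2.67 ± 1.32 did not pass. In 3-86 it had 0.192, 13.9, 4.63 and 0 CPM in trained neurons, against 151, 75.4, 64.0, 0.612, 0.796 and 2.41 CPM in control neurons. The control group here splits into 3 high and 3 low libraries, and control library 3, whose runs do not match, is among the high ones. mRpL50 at -1.32 and mRpS25 at -1.28 followed in DAL, and mRpL1 at -3.94 and mRpL44 at -3.64 in 3-86. For mRpS6 the DAL groups did not overlap either, with trained above control, as in 0.676% of all genes tested there.

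In R27G01 neurons mRpL39, a large-subunit protein related to threonyl-tRNA synthetase, had 0.138, 0, 0 and 1.09 CPM in trained libraries, against 76.7, 65.0, 97.8 and 28.1 CPM in control libraries. All trained libraries lay below all control libraries, as in 3.08% of all genes tested in R27G01, with a log2 fold change of -7.35 ± 2.31, an unadjusted p of 0.00442 and an adjusted p of 1 in edgeR. DESeq2 gave -7.37 with an adjusted p of 3.93e-04. mRpL48 had 0, 1.77, 0 and 0 CPM in trained libraries, against 27.3, 10.5, 70.9 and 28.2 CPM in control libraries, a log2 fold change of -6.08 ± 2.67. mRpL2, at the centre of the large subunit in bacteria, followed at -5.11 ± 2.56. Of the 72 genes, 4 had all trained R27G01 libraries below all control ones and 1 had them above. Among all genes tested there, 3.08% lay below and 0.829% above. Trained R27G01 libraries had 58 of 288 values at 0 and control libraries 29 of 288, and the genes detected in a library averaged 5728 in trained and 6614 in control libraries. The part of this lower detection in the 3 genes was not tested.

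mRpL39 and mRpL48 were also at or near 0 in 3 of 4 trained 3-86 libraries. mRpL39 had 0, 60.1, 0.201 and 0 CPM in trained libraries, against 79.6, 1.66, 43.8, 0, 47.4 and 65.3 CPM in control libraries. The 60.1 CPM belong to trained library 2, whose runs hold RNA of different origin and gave 87.6 and 30.7 CPM. mRpL48 had 0, 29.6, 0 and 0 CPM in trained libraries, against 0, 30.3, 5.70, 0, 63.1 and 103 CPM in control libraries.

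Over all 7 classes together no gene passed, with 0.173% of 9847 genes higher and 0.711% lower in trained neurons, and 5 of 71 had an unadjusted p below 0.05, against 10.6% of all genes. mRpL39 had a log2 fold change of -1.26 ± 0.43 (edgeR adjusted p = 0.144), mRpL48 of -1.26 ± 0.48 (0.232) and mRpL42 of 0.74 ± 0.32 (0.326). Without the unmatched 3-86 libraries mRpL39 passed at -2.28 (adjusted p = 0.00235) and mRpL48 at -2.56 (0.00305), where 2.1% of all genes were lower. DESeq2 called 4 genes on all libraries, with mRpL34 and mRpL42 higher and mRpL39 and mRpL48 lower, and among all genes it called 3.49% higher and 8.7% lower. Single libraries decided the call: without R27G01 trained library 2 mRpL48 passed, and without R27G01 trained library 4 mRpL22, mRpL39 and mRpL44 passed.

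The test of whether training effects differ between classes called 0 of the 71 genes and 1.24% of all genes. The smallest adjusted p values were 0.09 for mRpL39, 0.237 for mRpS2 and 0.264 for mRpL48. Without the unmatched 3-86 libraries mRpL3, mRpL39 and mRpL48 passed, DESeq2 called mRpL39, and without R27G01 trained library 4 mRpL28 passed.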

How the data were processed

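Raw read counts per gene were deposited by the authors for every sample, without normalization. Per the submitters' processing notes, cutadapt, TopHat2, Bowtie, Bowtie2, HTSeq and DESeq2 were used with BDGP5. Per the labels, cDNA was amplified with a SMARTer kit. The 3 compiled tables of the series were not used. Runs of a library were summed, and CPM are counts per 1000000 counts of the library. Tests used edgeR 4.0.16 in R 4.3.3 on counts, with TMM scaling, filterByExpr, a robust quasi-likelihood fit, 2-sided tests and Benjamini-Hochberg adjustment over all genes tested, at a threshold of 0.05. Groups weighed alike in each contrast. DESeq2 1.42.0, other scalings, no filter, leaving out libraries, and others were alternatives. The scripts were tested on simulated counts. SE is the absolute log2 fold change over the square root of F. Lengths and gene overlaps are from BDGP6, so no coordinates are given, and promoter motifs were not run because no sequence was used here.

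The genes and lists were chosen with earlier results of these data known. Named genes are, per comparison, up to 5 called higher and 5 called lower with the smallest p, those called against the majority, or, if under 3 passed, the 3 of lowest p. For levels they are the 5 highest and 5 lowest by mean CPM in control neurons, the S18 paralogues, the stalk proteins, mRpL44 and mRpL45. Genes named otherwise (where groups did not overlap, or under an alternative) were chosen after their values were seen. Depth sets the limit of detection, and the limit at a count of 0 is 3 counts of the total, covering counting error only.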

Additional observations from a re-analysis of the deposited data

How the results depend on the processing

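No paired analysis was possible because the labels do not say which trained and control libraries form a pair. The sample sheet letter as a term could not be fitted in 3-86 and R27G01, nor the first 2 digits of the title code in gamma, where the full code could be. The alternatives with the sheet letter, with the full code and with trained in place of control libraries were chosen after seeing the data. Of 450 counts and sums under alternatives, 398 stayed close to the main value. Many of these were counts of 0 under both settings, in comparisons where no or almost no gene of the whole table passed. The share that stayed close is therefore not a measure of how robust the calls were. Of 1241 fold changes of named genes under alternatives, 10 passed newly and 9 no longer passed. Of those that passed under either setting, 0 changed sign. Sign changes of genes that passed under neither setting were not counted. F tests of named genes, which have no direction, were not among the 1241. The cause was not tested for any of the changes below.

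For neurons against whole flies, DESeq2 gave 8 higher and 23 lower, its size factors in edgeR 8 and 20, and the count of lower genes was 10 with no filter, 11 in Kenyon cells alone and 14 in trained libraries. Leaving out single libraries gave 6 to 10 lower, with 10 without R27G01 control library 1. Here and in the comparisons below over several classes, only libraries of groups with at most 5 libraries were left out. No Kenyon cell library and no 3-86 control library was among them, so these ranges do not cover those libraries. For Kenyon cells against output neurons, the count of lower genes was 18 under DESeq2, 12 under its size factors, 13 under library totals, 3 relative to flies and 3 in trained libraries. Leaving out single libraries gave 5 to 14 lower and 0 to 1 higher. For the 7 classes, 13 were called under DESeq2, 7 under its size factors, 2 relative to flies and 8 in trained libraries. For the 5 output neuron classes, 7 were called under DESeq2, 0 under library totals and 0 with no filter, 4 without the unmatched 3-86 libraries, 5 in trained libraries, and 0 to 2 without single libraries. For training over the classes, DESeq2 called 4, and 2 passed without the unmatched libraries and 0 to 3 without single libraries (2 without 3-86 trained library 2). For class by training, DESeq2 called 1, and 3 passed without the unmatched libraries and 0 to 2 without single libraries (2 without 3-86 trained library 2). DESeq2 called 1 in R27G01. The mean number of genes detected in control Kenyon cells was 71 as deposited and 70.8 when thinned.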

Other observations

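Whole flies with the reporter alone entered no comparison. Their 3 libraries had summed levels of 5182, 4818 and 4343 CPM for the 72 genes, against 1100 to 2896 CPM in the 24 driver fly libraries. Scaled by TMM factors the sums were 2719 ± 250 and 2386 ± 217 CPM, so the gap was smaller on that scale. Their cytosolic ribosomal protein sum was 22.0 ± 1.6 times the mitochondrial one, against 71.5 ± 16.3 times in driver flies. Fat body markers summed to 17610 to 21700 CPM in them, against 6087 to 85640 CPM in driver flies.

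The brain libraries had summed levels of 1225 and 1101 CPM, and 13 of 144 values at 0. mRpL1 was the top gene in both, at 130.5 and 153.1 CPM, followed by mRpS35 at 89.2 and 65.1, mRpL55 at 79.5 and 77.9 and mRpS30 at 61.5 and 59.0 CPM. mRpL49 was at 0 and 0.88 CPM. The large-subunit share of the sum was 67.8% and 68.2%, against 57.3 ± 3.7% in control neurons. With 2 libraries that may come from the same brains, no test was made.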
